A study of Mus musculus with 12 samples.

Results

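The NR4A orphan nuclear receptors are Nr4a1 (also called Nur77), Nr4a2 (Nurr1) and Nr4a3 (Nor1). All 3 were measured, among 19938 genes in all, and each was read by 1 probe set whose only annotated symbol was that gene. The samples were primary mouse microglia, the resident macrophages of the brain, isolated with magnetic CD11b beads from C57BL/6J pups on postnatal day 7 and cultured for 3 days before a treatment of 6 h. There were 4 groups of 3 arrays each, and 3 separate litters of pups supplied the replicates of every treatment. The first group received oligomeric Aβ42 at 10 µM with an agonist of the EP4 receptor at 100 nM, the second Aβ42 alone at 10 µM with ethanol at 0.001%, and the third the EP4 agonist alone at 100 nM with DMSO at 0.4%. The fourth group was the vehicle control, for which the labels give DMSO at 0.4% and ethanol at 0.001%. Aβ42 is the amyloid peptide of Alzheimer's plaques, and EP4 is a receptor of prostaglandin E2, for which the labels call this agonist, AE1 in the sample titles, specific. All cells were wild-type, neonatal and cultured, so no group models adult or plaque-associated microglia directly.

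NR4A receptors bind DNA as monomers, as dimers, or with retinoid X receptors, and they act without a known natural ligand that switches them on. Their activity is therefore set largely by how much protein is made. They are immediate-early genes: signals that raise cyclic AMP (cAMP), among them the one from the EP4 receptor, activate the factor CREB at cAMP response elements (CRE) in their promoters. In macrophages and microglia, Nr4a2 is known to bring the CoREST repressor complex to inflammatory genes, and Nr4a1 is known to restrain NF-κB target genes.

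The promoter windows of the 3 genes are shown because all 3 transcripts moved under an agonist of a cAMP-coupled receptor. Each window is 300 bases around the annotated start, from RefSeq on build GRCm38.p6, written 5′ to 3′ on the gene's strand. Capitals mark the CRE half-site TGACG on either strand, so that CGTCA is the same site read from the other strand. Nr4a1 lies at chr15:101266596-101266895 on the plus strand, Nr4a2 at chr2:57123954-57124253 on the minus strand, and Nr4a3 at chr4:48045055-48045354 on the plus strand.
Nr4a1: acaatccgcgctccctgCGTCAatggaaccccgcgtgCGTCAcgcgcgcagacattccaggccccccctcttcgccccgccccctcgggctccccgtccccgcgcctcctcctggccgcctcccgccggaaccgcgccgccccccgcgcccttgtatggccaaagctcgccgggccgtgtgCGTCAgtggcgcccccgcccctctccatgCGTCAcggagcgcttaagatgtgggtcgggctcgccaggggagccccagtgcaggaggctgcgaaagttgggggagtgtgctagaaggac
Nr4a2: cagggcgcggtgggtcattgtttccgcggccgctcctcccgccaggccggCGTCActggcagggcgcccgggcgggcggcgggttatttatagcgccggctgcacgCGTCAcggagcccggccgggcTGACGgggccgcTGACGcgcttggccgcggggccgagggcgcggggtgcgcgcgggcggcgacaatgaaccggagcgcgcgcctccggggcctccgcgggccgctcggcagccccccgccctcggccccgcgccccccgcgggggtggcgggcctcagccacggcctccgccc
Nr4a3: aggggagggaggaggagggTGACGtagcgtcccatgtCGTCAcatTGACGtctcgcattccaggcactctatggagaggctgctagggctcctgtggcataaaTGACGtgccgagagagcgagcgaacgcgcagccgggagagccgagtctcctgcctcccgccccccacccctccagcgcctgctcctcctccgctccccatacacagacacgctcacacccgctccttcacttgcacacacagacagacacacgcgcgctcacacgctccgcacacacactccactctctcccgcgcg

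Each of the 3 windows held 4 CRE half-sites. Of the 32851 promoter windows in the same table, 20.81% held at least 1 half-site, and 76 windows (0.231%) held 4 or more. The half-site contains a CG, and the 3 windows are rich in G and C (72.3% for Nr4a1, 81.7% for Nr4a2 and 64.7% for Nr4a3). Among the 9690 windows with a GC content of at least 60%, 54 (0.557%) held 4 or more. The layout differed between the genes. In Nr4a1 all 4 half-sites read in the minus direction and fell in a pair that began at bases -233 and -213 and a pair that began at -69 and -40, counted from the start. In Nr4a2 they began at -200, -144, -123 and -111, and in Nr4a3 at -231, -213, -205 and -147. The full palindrome TGACGTCA was in none of the 3 windows (1.79% of all windows held it), nor was the NR4A monomer site AAAGGTCA (1.51%), the CArG box (1.63%) or the MEF2 site (0.56%). The NF-κB motif matched 1 position in Nr4a1, from base -3 to base 6, and no position in Nr4a2 or Nr4a3 (8.46% of all windows held it). The motifs were chosen with results of these data known, and a match describes letters, not binding.

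**Figure D1:**
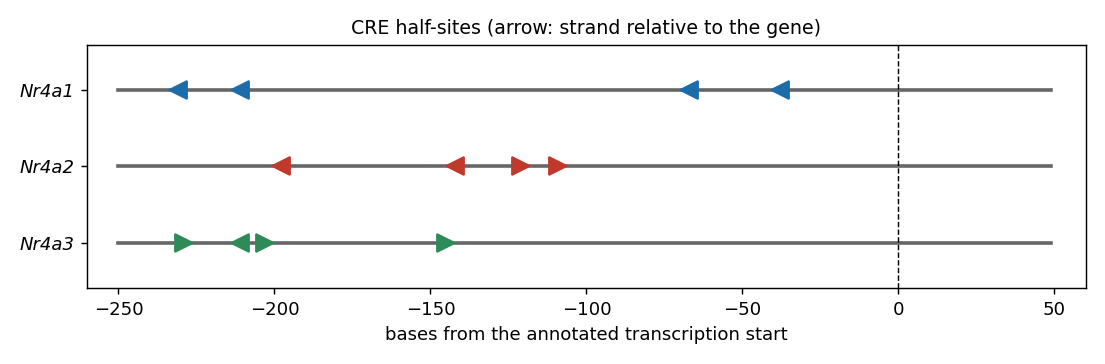
Positions of the CRE half-sites in the promoter windows of the 3 NR4A genes. The horizontal axis gives bases from the annotated transcription start, each arrow is 1 half-site and points along the strand it reads on, and each gene has 4.

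The labelled cell type was checked on 11 measured microglia and macrophage markers, all of which lay above the median of all genes in every group, with group medians of the 11 between 11.84 and 11.96 log2 units. Of the markers of other cells, 0 of 6 neutrophil, 1 of 4 monocyte and border macrophage, 2 of 5 astrocyte, 1 of 7 neuron and 2 of 6 endothelial and mural genes lay above that median in each group, as did 2 to 4 of 7 oligodendrocyte-lineage genes and 0 or 1 of 4 lymphocyte genes. The 1 monocyte and border macrophage gene above the median had group means of 10.70 to 10.86 log2 units. The check therefore does not exclude such cells. Some members of the microglial list passed in the comparisons reported here. Against vehicle, both agents raised 0 and lowered 3 of the 11 markers (9.27% and 11.9% of all genes). Aβ42 alone raised 2 and lowered 4 (10.7% and 14.8%), and the EP4 agonist alone raised 1 and lowered 3 (4.71% and 5.45%). Both agents against Aβ42 alone raised 1 and lowered 2 (5.99% and 5.04%). Both agents against the EP4 agonist alone raised 1 and lowered 3 (9.77% and 12.2%). P2ry12 fell by 1.65 ± 0.11 log2 units (SE) with both agents, fell by 1.43 ± 0.11 with Aβ42 alone and fell by 0.59 ± 0.11 with the EP4 agonist alone, each against vehicle, and Cx3cr1 fell by 0.82 ± 0.10 with the EP4 agonist alone. The median change of the 11 markers against vehicle was -0.05 with both agents, -0.09 with Aβ42 alone and 0.00 with the EP4 agonist alone. Tmem119 was among the markers higher with Aβ42 alone, a call lost without Aβ42 replicate 1 or vehicle replicate 1. Itgam was the 1 marker higher with both agents than with Aβ42 alone, a call lost when some single arrays were left out. The summed level of the list ran over the arrays from 120.76 to 121.24 with both agents, from 122.36 to 122.90 with Aβ42 alone, from 122.39 to 122.89 with the EP4 agonist alone and from 123.68 to 124.02 in vehicle. Of the 6 endothelial and mural genes, 1 was higher and 1 lower with the EP4 agonist alone than in vehicle (4.71% and 5.45% of all genes). The same numbers held for both agents against Aβ42 alone (5.99% and 5.04%). In these comparisons Pecam1, an adhesion molecule of endothelial and some blood cells, was higher by 1.22 ± 0.08 and by 0.90 ± 0.08 log2 units, and Flt1, a VEGF receptor, differed by -0.44 ± 0.06 and by -0.47 ± 0.06. The summed level of that list ran from 42.69 to 43.73 with both agents, from 42.15 to 43.27 with Aβ42 alone, from 42.07 to 43.87 with the EP4 agonist alone and from 41.56 to 42.87 in vehicle. The part of these marker shifts in the NR4A results was not tested. In bulk RNA, fewer cells of a type and less RNA per cell cannot be told apart. Some arrays stood apart from their group. In vehicle replicate 1, 18 genes exceeded the remaining vehicle arrays by 1 log2 unit or more, in vehicle replicate 3, 12 genes fell that far short of them, and replicate 3 of the agonist group had 16 genes above and 13 below. No other array had more than 5 on either side.

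The EP4 agonist alone raised all 3 NR4A transcripts. Nr4a1 read 9.71, 9.61 and 9.55 log2 units in the agonist arrays of litters 1, 2 and 3, against 8.13, 8.09 and 8.13 in the vehicle arrays. Nr4a2 read 10.11, 10.22 and 10.32 with the agonist, against 8.33, 7.85 and 7.91 in vehicle. Every agonist array lay above every vehicle array for both genes, and the one vehicle array that stood out, litter 1 of Nr4a2, still lay far below the agonist arrays. Nr4a3 read 6.67, 6.78 and 6.66 with the agonist and 6.29, 6.29 and 6.20 in vehicle. Its groups were separate too, but its values lay below the array medians of 6.97 to 7.05, so that it was a dim probe set on these arrays.

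In the limma fit over all 12 arrays, Nr4a2 was 4.58-fold higher with the agonist than in vehicle (2.19 ± 0.11 log2 units, SE, adjusted p = 8.63e-08). It had the fifth highest change of the 19938 genes. Nr4a1 was 2.85-fold higher (1.51 ± 0.07, adjusted p = 7.92e-08) and ranked 13 from the top. Nr4a3 was 1.36-fold higher (0.44 ± 0.07, adjusted p = 0.000952) and ranked 311. Of all genes, 10.2% passed this comparison at an adjusted p below 0.05, 4.71% as higher and 5.45% as lower, and the groups were separate and higher for 10.4%. Each gene was higher in 3 of 3 litters, by 1.42 to 1.59 log2 units for Nr4a1, 1.79 to 2.42 for Nr4a2 and 0.38 to 0.48 for Nr4a3. Without vehicle replicate 1 the changes were 1.52, 2.34 and 0.45 log2 units, and without agonist replicate 3 they were 1.55, 2.14 and 0.46, all still past the threshold. Without vehicle replicate 3 they were 1.52, 2.13 and 0.41.

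**Figure D2:**
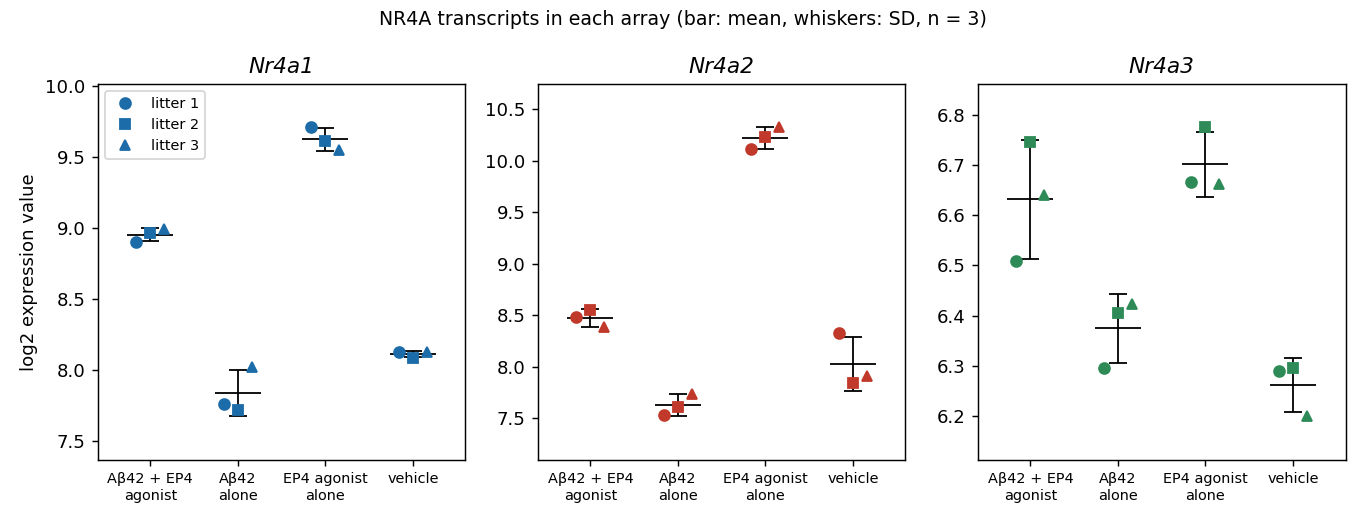
Log2 expression value of Nr4a1, Nr4a2 and Nr4a3 in each of the 12 arrays, by treatment group. Marker shape gives the litter, the horizontal bar the group mean and the whiskers the SD (n = 3), and each panel has its own vertical scale because levels of different probe sets are not comparable. The agonist arrays lie highest for Nr4a1 and Nr4a2, the arrays with both agents come next, and the Aβ42 arrays lie lowest.

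In microglia that also received Aβ42, the agonist again raised the NR4A transcripts, with Nr4a1 ahead of Nr4a2 by fold. Nr4a1 read 8.904, 8.969 and 8.995 log2 units with both agents in litters 1, 2 and 3, against 7.77, 7.72 and 8.02 with Aβ42 alone. Nr4a2 read 8.48, 8.55 and 8.38 with both agents, against 7.53, 7.61 and 7.74 with Aβ42 alone. Nr4a3 read 6.51, 6.75 and 6.64 with both agents and 6.30, 6.40 and 6.42 with Aβ42 alone. None of these pairs of groups overlapped, although for Nr4a3 the gap between the lowest array with both agents and the highest with Aβ42 alone was small beside its spread.

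Nr4a1 was 2.17-fold higher with both agents than with Aβ42 alone (1.12 ± 0.07 log2 units, SE, adjusted p = 9.44e-07), the change ranked 37 from the top. Nr4a2 was 1.80-fold higher (0.85 ± 0.11, adjusted p = 0.000239) and ranked 83. In this comparison 11.0% of all genes passed, 5.99% as higher and 5.04% as lower, and the groups were separate and higher for 15.9%. Nr4a3 was 1.20-fold higher (0.26 ± 0.07, adjusted p = 0.0262), and this call was lost when any of 4 single arrays was left out or when all probe sets were tested, with adjusted p-values of 0.0534 to 0.12. All 3 genes were higher in 3 of 3 litters. This comparison shares no array with that of the EP4 agonist alone against vehicle.

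The test of the difference between these responses was the interaction, the agonist change with Aβ42 minus the agonist change without it. For Nr4a2 it was -1.35 ± 0.16 log2 units (SE, adjusted p = 0.000521), so that the 4.58-fold rise without Aβ42 stood against a 1.80-fold rise with it. It was the 16th lowest interaction of the 19938 genes, of which 1.95% passed, 1.03% above and 0.918% below 0. The per-litter values were -0.84, -1.43 and -1.77 log2 units, below 0 in 3 of 3 litters. Litter 1, which contains the high vehicle array, gave the value nearest to 0. The interaction was -1.50 without vehicle replicate 1 and -1.30 without agonist replicate 3, and its adjusted p stayed between 0.000113 and 0.00324 in all alternatives tried.

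For Nr4a1 the interaction was -0.39 ± 0.11 log2 units (SE), also below 0 in 3 of 3 litters (-0.45, -0.28 and -0.45). It had an unadjusted p of 0.0028 and missed the threshold after adjustment over all genes (adjusted p = 0.0946, 0.0555 to 0.226 in the alternatives). Its 95% interval ran from -0.62 to -0.16, apart from that of Nr4a2, which ran from -1.69 to -1.01. Nr4a3 had an interaction of -0.18 ± 0.10 (adjusted p = 0.581), with an interval from -0.39 to 0.02. Whether the interaction differed between the 3 genes was not tested.

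**Figure D3:**
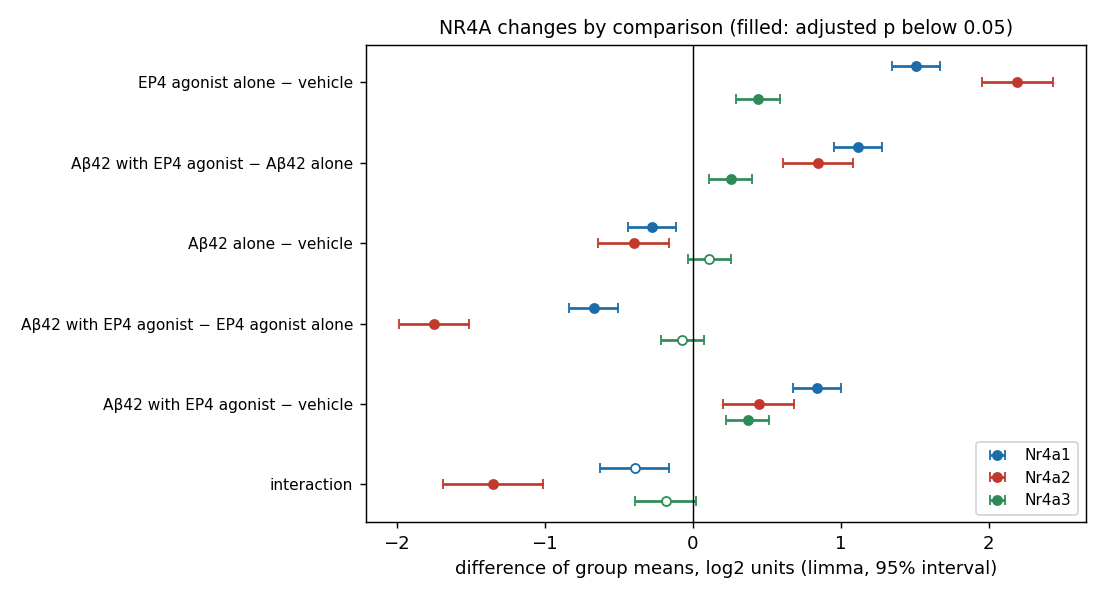
Change of each NR4A gene in 6 comparisons, in log2 units on the horizontal axis, with 95% intervals from the limma fit. Filled points passed an adjusted p below 0.05. Intervals of Nr4a2 lie farthest from 0 in the comparison of the EP4 agonist alone with vehicle (2.19), in that of both agents with the EP4 agonist alone (-1.75) and in the interaction (-1.35).

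Aβ42 alone moved the NR4A genes little. Nr4a1 was 1.21-fold lower with Aβ42 than in vehicle (-0.28 ± 0.07 log2 units, SE, adjusted p = 0.0145) and Nr4a2 1.32-fold lower (-0.40 ± 0.11, adjusted p = 0.0159). Nr4a3 differed by 0.11 ± 0.07 (adjusted p = 0.275), with an interval from -0.03 to 0.26. In this comparison 25.6% of all genes passed, 10.7% as higher and 14.8% as lower. With only 3 genes, 2 small calls cannot be weighed against these shares. The difference was below 0 in 3 of 3 litters for both Nr4a1 (-0.36, -0.37 and -0.10) and Nr4a2 (-0.79, -0.24 and -0.17). The arrays of the groups did not overlap for any of the 3 genes, which held for 18.6% of all genes as lower and 16.4% as higher. Both calls were lost without Aβ42 replicate 1 (adjusted p = 0.0682 for Nr4a1 and 0.0714 for Nr4a2), and that of Nr4a1 also without Aβ42 replicate 2 (0.0726). Without vehicle replicate 1 the Nr4a2 difference shrank to -0.25, with an adjusted p of 0.0351.

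Where the agonist was present, Nr4a2 and Nr4a1 were lower with Aβ42 than without it, and Nr4a3 did not pass. Nr4a2 was 3.36-fold lower with both agents than with the EP4 agonist alone (-1.75 ± 0.11 log2 units, SE, adjusted p = 7.46e-08), the 31st lowest change of all genes. Nr4a1 was 1.59-fold lower (-0.67 ± 0.07, adjusted p = 1.88e-05). In this comparison 22.0% of all genes passed, 9.77% as higher and 12.2% as lower, and the groups were separate and lower for 20.7%. Nr4a3 differed by -0.07 ± 0.07 (adjusted p = 0.57), its arrays overlapped, and its interval ran from -0.22 to 0.08. The agonist arrays are shared with the comparison against vehicle, so the 2 sets of values are not independent.

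Against vehicle, all 3 genes remained higher with both agents. Nr4a1 was 1.79-fold higher (0.84 ± 0.07 log2 units, SE, adjusted p = 2.1e-06), Nr4a2 1.36-fold (0.45 ± 0.11, adjusted p = 0.00994) and Nr4a3 1.29-fold (0.37 ± 0.07, adjusted p = 0.00119), where 21.2% of all genes passed, 9.27% as higher and 11.9% as lower. With Aβ42 alone against the EP4 agonist alone the changes were -1.79 log2 units for Nr4a1, -2.59 for Nr4a2 and -0.33 for Nr4a3, and all 3 passed (31.7% of all genes did, 14.5% as higher and 17.2% as lower). The group means of Nr4a1 were 9.63 ± 0.08 log2 units for the EP4 agonist alone, 8.96 ± 0.05 for both agents, 7.84 ± 0.16 for Aβ42 alone and 8.12 ± 0.02 for vehicle (SD, n = 3 each), so that the agonist alone was highest, both agents came next, and Aβ42 alone lay below vehicle. Nr4a2 had the same order, with 10.22 ± 0.10 for the EP4 agonist alone, 8.47 ± 0.09 for both agents, 7.63 ± 0.11 for Aβ42 alone and 8.03 ± 0.26 for vehicle. The neighbours that were least secure in both orders were Aβ42 alone and vehicle. For Nr4a3, the EP4 agonist alone (6.70 ± 0.06) and both agents (6.63 ± 0.12) overlapped. Aβ42 alone (6.37 ± 0.07) and vehicle (6.26 ± 0.05) did not overlap, but their difference did not pass (adjusted p = 0.275).

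The NR4A genes were set beside 42 other nuclear receptors measured on the arrays, ligand-activated or orphan transcription factors of the same superfamily. With the EP4 agonist alone against vehicle, Nr4a2 and Nr4a1 had the highest and second highest change of the 45 receptors, and Nr4a3 ranked 4. Of the other 42, 4 were higher, 0 lower and 38 neither, around a median of 0.00 log2 units, where all genes had -0.01 and 4.71% of them were higher and 5.45% lower. The number higher ran from 3 to 4 when 1 array was left out and from 1 to 6 over all settings. The highest of the 42 was Vdr, the vitamin D receptor, at 0.65 ± 0.07 (SE, adjusted p = 6.58e-05). Rxrb, a retinoid X receptor, followed at 0.36 ± 0.10 (adjusted p = 0.0463), a call lost when most single arrays were left out. Thra, a thyroid hormone receptor, was higher by 0.28 ± 0.05. With both agents against Aβ42 alone, Nr4a1 and Nr4a2 again ranked 1 and 2 of 45, ahead of Thra at 0.46 ± 0.05 (adjusted p = 8.02e-05), and Nr4a3 ranked 7. Of the others, 4 were higher, 1 was lower and 37 did not pass (2 to 5 higher and 0 or 1 lower when 1 array was left out, against 5.99% higher and 5.04% lower of all genes).

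Aβ42 alone raised 4 and lowered 11 of the 42 other receptors against vehicle, where 10.7% of all genes were higher and 14.8% lower. Nr1h3, the oxysterol receptor LXRα, was higher by 1.55 ± 0.13 log2 units (SE, adjusted p = 7.58e-07), and Rora, a receptor tied to the circadian clock, fell by 0.83 ± 0.06. With both agents against the EP4 agonist alone, 4 of the others were higher and 11 lower, beside 9.77% and 12.2% of all genes. Nr4a2 had the lowest change of all 45 and Nr4a1 the third lowest, with Pparg, a regulator of lipid uptake, between them at -0.90 ± 0.15. In the interaction, Vdr was the 1 of the 42 other receptors that passed (-0.52 ± 0.10, adjusted p = 0.0182), beside 1.95% of all genes. Vdr lost that call without agonist replicate 2 (0.0603), without Aβ42 replicate 3 (0.0576) or with all probe sets tested (0.0524).

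**Figure D4:**
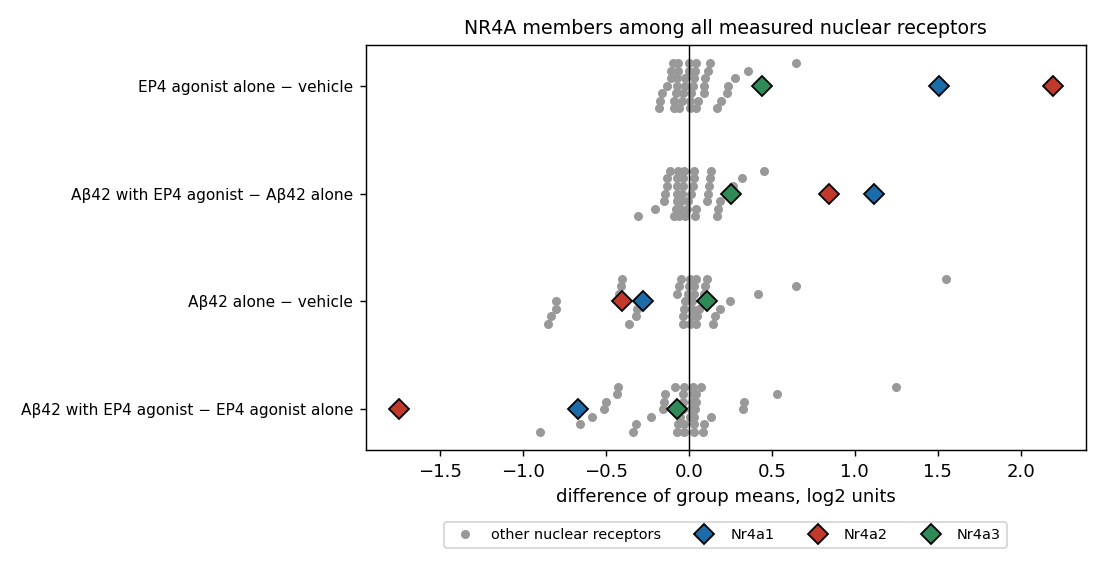
Change in log2 units of the 3 NR4A genes (coloured diamonds) and of 42 other measured nuclear receptors (grey points) in 4 comparisons. The vertical spread of the grey points only separates them. Nr4a1 and Nr4a2 lie beyond all grey points in both comparisons that add the agonist, and Nr4a2 lies below all of them where both agents are set against the EP4 agonist alone.

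The partners through which NR4A receptors act were taken next. The list held the retinoid X receptors, with which Nr4a1 and Nr4a2 form heterodimers, and subunits of repressor complexes including CoREST, and 10 of its 12 genes were measured. It shares the retinoid X receptors with the receptor list above, so Rxrb is counted in both. The EP4 agonist alone raised 2 and lowered 0 of the 10 partners against vehicle (median -0.01 log2 units, -0.01 over all genes), beside 4.71% and 5.45% of all genes. These were Phf21a (0.25 ± 0.07, SE, adjusted p = 0.0428) and Rxrb (0.36 ± 0.10, adjusted p = 0.0463), and both calls were lost when most single arrays were left out, so that 0 or 1 partner was called higher after any single omission. Rcor1, which encodes the CoREST scaffold, differed by -0.03 ± 0.05, and Kdm1a, its histone demethylase, by -0.13 ± 0.07, and neither passed. Aβ42 alone raised 2 and lowered 3 partners, beside 10.7% and 14.8% of all genes. Rxra, with the smallest p of the partners, was lower by 0.80 ± 0.07 (adjusted p = 1.31e-06) and Rxrg higher by 0.64 ± 0.09 (adjusted p = 8.2e-05). Between both agents and Aβ42 alone, 1 partner was higher and 1 lower (5.99% and 5.04% of all genes), with Phf21a at 0.33 ± 0.07 (adjusted p = 0.00814). The interaction was passed by 0 of 10 partners, beside 1.95% of all genes.

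Genes upstream of NR4A transcription, such as CREB coactivators, the kinases that restrain them, and MEF2 factors with their class IIa histone deacetylases, were measured for 22 of 23 members. The EP4 agonist alone raised 8 and lowered 2 of them against vehicle (median 0.07 log2 units), beside 4.71% and 5.45% of all genes. Crem, a CREB family gene that also encodes the inducible repressor ICER, was higher by 1.52 ± 0.10 (SE, adjusted p = 5.45e-07). Hdac9, a class IIa deacetylase that represses MEF2 factors, was lower by 1.43 ± 0.07 (adjusted p = 9.52e-08). Sik3, a kinase that holds CREB coactivators in the cytoplasm, was higher by 0.59 ± 0.05 (adjusted p = 9.93e-06). The number higher fell to 4 at the lowest when 1 array was left out. Creb1 itself differed by 0.06 ± 0.06 and did not pass.

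With both agents against Aβ42 alone, 7 of the 22 were higher and 2 lower (4 to 8 and 2 to 4 when 1 array was left out), beside 5.99% and 5.04% of all genes. Crem was higher by 1.31 ± 0.10 (SE, adjusted p = 2.02e-06), Hdac9 fell by 0.77 ± 0.07 and Mef2c fell by 0.59 ± 0.06. Aβ42 alone raised 4 and lowered 9 of them against vehicle (10.7% and 14.8% of all genes), and among them Mef2c fell by 1.09 ± 0.06, Hdac5 fell by 0.90 ± 0.10 and Hdac9 fell by 0.84 ± 0.07. In the interaction, Hdac9 was above 0 (0.66 ± 0.10, adjusted p = 0.00426) and Sik1, a CREB-induced kinase that feeds back on CREB coactivators, was below 0 (-0.49 ± 0.08, adjusted p = 0.0063). The agonist thus lowered Hdac9 less with Aβ42 (-0.77) than without it (-1.43). The interaction of Sik1 was below 0, as that of Nr4a2 was.

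Early targets of cAMP and CREB were mostly raised by the agonist where they passed. This list was chosen with earlier results of these data known, so its counts are no independent sign of a cAMP response. It shares Crem and Sik1 with the upstream genes above and Fos with the other immediate-early genes below. The counts of these lists are therefore not separate evidence. Of 17 measured, 9 were higher and 0 lower with the EP4 agonist alone than in vehicle, with a median of 0.34 log2 units against -0.01 over all genes, of which 4.71% were higher and 5.45% lower. Besides Crem they included Pde4d, a phosphodiesterase that degrades cAMP, at 1.41 ± 0.09 (SE, adjusted p = 9.22e-07), and Cebpb, a transcription factor, at 0.75 ± 0.07. Adding the agonist to Aβ42 left 6 of them higher and 2 lower (5.99% and 5.04% of all genes), with Fos at 1.03 ± 0.10 and Pde4d at 0.79 ± 0.09. In the interaction, 0 passed above 0 and 3 passed below it (1.03% and 0.918% of all genes). These were Rgs2, a brake on G protein signalling, at -0.92 ± 0.14 (adjusted p = 0.00291), Sik1, and Pde4d at -0.62 ± 0.13 (adjusted p = 0.0317, lost in 10 of the alternatives). Aβ42 alone raised 5 and lowered 2 of the list (2 to 4 lower when 1 array was left out, and 10.7% and 14.8% of all genes). The highest change in the list was 3.16 log2 units, and the lowest was that of Rgs2, which fell by 2.52 ± 0.10.

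Other immediate-early genes moved in both directions with the agonist. Of 18 measured, 6 were higher and 3 lower with the EP4 agonist alone than in vehicle, with a median of -0.01 log2 units (4.71% and 5.45% of all genes were higher and lower). Fosl2 (1.15 ± 0.06, SE, adjusted p = 1.36e-07) and Fos (0.93 ± 0.10), subunits of the factor AP-1, rose, and Egr2, a zinc finger factor, fell by 0.68 ± 0.07. Adding the agonist to Aβ42 left 5 of them higher and 7 lower (5.99% and 5.04% of all genes), where Egr2 fell by 1.05 ± 0.07 (adjusted p = 9.17e-07) and Egr1 fell by 0.88 ± 0.08. Aβ42 alone raised 13 of the 18 and lowered 1 against vehicle (10.7% and 14.8% of all genes), whereas Nr4a1 and Nr4a2 were lower. Junb was higher by 1.17 ± 0.06 and Maff by 1.82 ± 0.12. In the interaction, 1 of the 18 passed above 0 and 3 passed below it, as Nr4a2 did (1.03% and 0.918% of all genes). The number passing below 0 ran from 1 to 4 when 1 array was left out and from 1 to 6 over all settings. Jun was above 0 (1.01 ± 0.13, adjusted p = 0.00126). Btg2, an antiproliferative gene, was below 0 (-0.48 ± 0.07, adjusted p = 0.00297), and so was Zfp36, which encodes an mRNA decay factor (-0.47 ± 0.10, adjusted p = 0.029, lost in 10 alternatives).

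Genes that NR4A receptors are known to control in other tissues were measured for 18 members. The EP4 agonist alone raised 2 and lowered 1 against vehicle, beside 4.71% and 5.45% of all genes. Havcr2, the T cell checkpoint receptor TIM-3, was higher by 0.54 ± 0.09 log2 units (SE, adjusted p = 0.00131), Tox2, a factor of exhausted T cells, was lower by 0.56 ± 0.05 (adjusted p = 2.39e-05), and Slc2a4, a glucose transporter, was higher by 0.26 ± 0.07 with a call lost in 9 of the alternatives. The median of the list was -0.02 log2 units, against -0.01 over all genes. Under both agents against Aβ42 alone, Havcr2 was higher by 0.68 ± 0.09 (adjusted p = 0.000207) and was the 1 gene that rose, and Tox2 the 1 that fell (-0.19 ± 0.05, lost in 10 alternatives), beside 5.99% and 5.04% of all genes.

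Of 3 inflammatory genes that Nr4a2 and CoREST are known to restrain in microglia, Tnf fell by 0.73 ± 0.09 log2 units (SE, adjusted p = 0.000129) with the EP4 agonist alone against vehicle, and Il1b was higher by 1.34 ± 0.16 (adjusted p = 0.000132), while Nos2 differed by 0.06 and did not pass. With both agents against Aβ42 alone, Tnf was lower by 0.39 ± 0.09 (adjusted p = 0.01, 0.0511 without replicate 3 of the group with both agents), and Nos2 was lower by 0.30 ± 0.08 (adjusted p = 0.0229, lost in 5 alternatives). Il1b differed by 0.23 and did not pass. The highest Nr4a2 level, in the agonist arrays, thus went with lower Tnf and with higher Il1b than in vehicle. Aβ42 alone, where Nr4a2 was lowest, raised all 3 genes against vehicle, by 1.58 to 5.84 log2 units (10.7% of all genes were higher). Both agents, where Nr4a2 was above vehicle, also raised all 3, by 1.28 to 6.07 (9.27% of all genes were higher). In the interaction 1 of the 3 passed, Il1b at -1.12, beside 1.95% of all genes, and 0 or 1 did when 1 array was left out. The part of Nr4a2 in these changes was not tested.

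The genes whose levels followed each NR4A gene most closely over the 12 arrays were sought among 928 genes whose group means spanned at least 1 log2 unit. These correlations describe arrays that share treatment and litter, and no test was made. For Nr4a1 they were Cytip, a regulator of leukocyte adhesion (Pearson r = 0.996), Crem (0.987), Edil3, an integrin ligand (0.981), Pde4d (0.979) and Ece1, a peptidase that can degrade Aβ (0.977). Cytip was higher by 4.26 log2 units with the EP4 agonist alone than in vehicle and by 3.21 with both agents than with Aβ42 alone. For Nr4a2 they were Isy1, a splicing factor (0.991), Phlpp1, a phosphatase of AKT (0.984), Cnnm2, a magnesium transport protein (0.979), Gngt2, a G protein subunit (0.975), and Pde7b, a cAMP phosphodiesterase (0.974). Cnnm2 was higher by 1.97 with the EP4 agonist alone than in vehicle and by 1.20 with both agents than with Aβ42 alone.

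For Nr4a3 the values were lower: Parp8 (0.944), Fosl2 (0.938), Neurl3, a ubiquitin ligase (0.937), Fos (0.920) and Csf2rb, the shared β chain of the GM-CSF receptor (0.917). Leaving out any single array kept r between 0.903 and 0.998 for all 15 genes. Between the NR4A genes themselves r was 0.934 for Nr4a1 and Nr4a2, 0.865 for Nr4a1 and Nr4a3, and 0.754 for Nr4a2 and Nr4a3. Of the genes named here whose promoter windows were in the table, Isy1 and Fos each held 2 CRE half-sites, Parp8 and Neurl3 each held 1, and the others held 0.

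**Figure D5:**
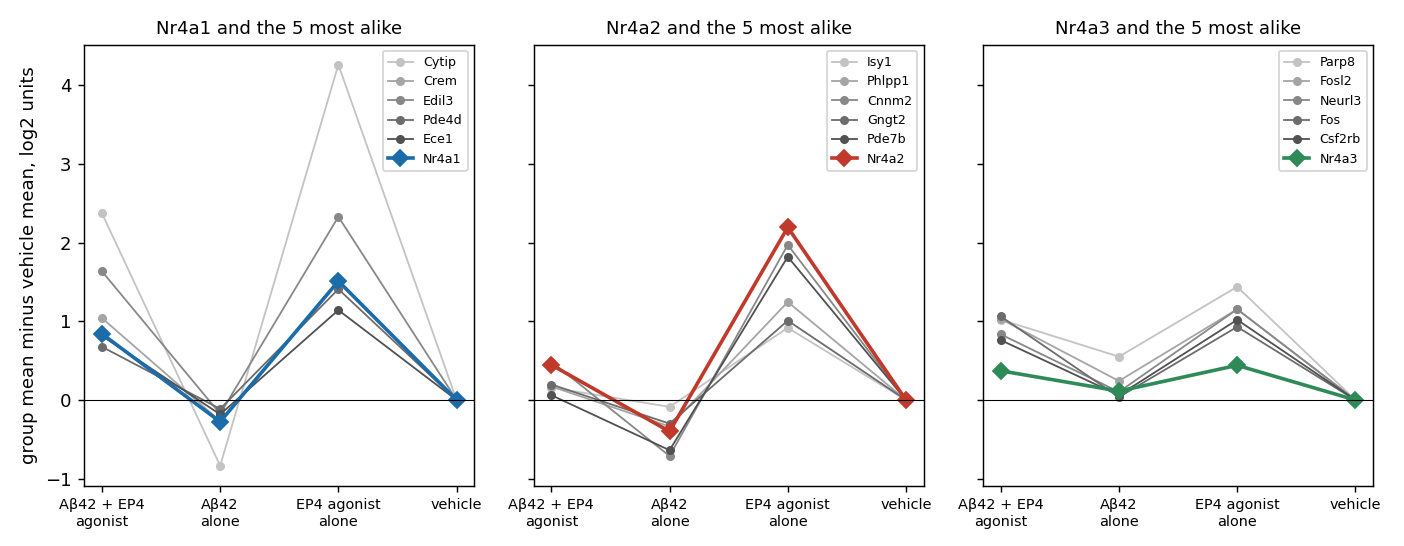
Group mean minus vehicle mean, in log2 units, of each NR4A gene (coloured) and of the 5 genes most like it over the 12 arrays (grey), by treatment group. Lines join the group means of 1 gene and do not stand for a course in time. All profiles peak with the EP4 agonist alone except that of Fos, which is 0.13 higher with both agents.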

How the data were processed

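Each array has 1 deposited value per probe set, on a log2 scale. The labels name Affymetrix Mouse Gene 1.0 ST arrays, and Partek 6.5 and RMA stand in the submitters' processing notes with no role given. The genome build behind the deposited values was not given in the sources used here, and the promoter windows are RefSeq's on GRCm38.p6. Such log2 values from hybridisation can understate fold changes of dim probe sets. Precision is limited by how many arrays there are.

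Of 35556 probe sets, 21789 had 1 symbol, 1621 several and 12146 none. The highest-mean probe set was kept for each of 19938 genes. A linear model with 1 mean per group was fitted to the 12 arrays together, using lmFit and eBayes of limma 3.58.1 under R 4.3.3, two-sided and with 8 residual degrees of freedom. It takes 1 spread per gene for all groups, while the median SD over genes was 0.109 in vehicle and 0.0628 to 0.066 in the others. The SE can therefore be too small where 1 group is set against vehicle, and too large where vehicle is not used. P-values were adjusted by Benjamini-Hochberg over all genes in each comparison, with a threshold of 0.05. The fit was also run on simulated data with independent noise and with changes added to the Aβ42 group alone. That run covered neither a litter effect nor the interaction.

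Samples were grouped by their labels. The design text gives 3 litters, and the replicate number was taken as the litter, an inference that pairs the arrays. The main fit had no litter term, so its p-values are unpaired. In the check, deviations from group means correlated with a mean r of 0.326 over 18 same-number pairs (0.00435 to 0.538), and 12 of 12 arrays correlated best with their own number.

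Members and gene lists were chosen with earlier results of these data known. The text names the NR4A genes, up to 3 passing members per list and comparison with the smallest p, any partner, and the 5 genes most like each NR4A gene. Creb1 beside them, and list members given as not passing, were chosen after their values were seen. Alternatives were a litter block, other array scaling, other priors, other gene filters, the arrays of a comparison alone and each array left out.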

Additional observations from a re-analysis of the deposited data

Results flagged for a closer look

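Nr4a2 stood out because its response to the agonist differed between cultures with and without Aβ42 by a test of the difference itself. The agonist change was 0.85 log2 units with Aβ42 and 2.19 without it, and the difference was -1.35 ± 0.16 log2 units (SE, limma adjusted p = 0.000521, below 0 in 3 of 3 litters).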

How the results depend on the processing

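The 3 NR4A genes gave 21 differences over 7 comparisons and 389 values under alternatives, of which 379 kept direction and side of the threshold, 10 fell short of it, and 0 changed sign. The litter taken as replicate block changed no call of an NR4A gene, but raised the number of genes passing the interaction to 677, against 389 without it (246 to 557 when 1 array was left out). With the arrays of the comparison alone, 970 genes passed for the EP4 agonist alone against vehicle, against 2026 (1410 to 2345 when 1 array was left out). That setting also ended the calls of Nr4a1 (-0.28, adjusted p = 0.0587) and Nr4a2 (-0.40, adjusted p = 0.0596) for Aβ42 alone against vehicle. When 1 array was left out these changes ran from -0.37 to -0.22 for Nr4a1 and from -0.49 to -0.25 for Nr4a2. For both agents against Aβ42 alone, Nr4a3 kept 0.26 but missed the threshold with all probe sets tested (adjusted p = 0.0534), and ran from 0.20 to 0.32 when 1 array was left out. The number of genes passing that comparison ran from 1491 to 3093. Nr4a3 lies below the median level, so the filter on low levels gave no value for it. Among the genes named in lists, 2900 of 3063 alternative values kept their side of the threshold and 163 fell short. The causes were not tested.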
